A study of Mus musculus with 12 samples.

Results

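The genes described are 40 genes of the unfolded protein response and of the early secretory pathway, picked by symbol from the 28188 genes of the raw count table. By role they are 3 stress sensors, 4 transcription factors, 11 chaperones and their partners, 4 protein disulfide isomerases, 7 genes of endoplasmic reticulum (ER) associated degradation, 4 targets of the integrated stress response, and 7 genes of protein translocation and signal peptide removal. They were followed in poly(A)-selected RNA of 12 libraries, 3 from each of 4 groups: B cells and dendritic cells of the spleen, each from NOD and from NOD.Idd2 mice. All mice were 12 weeks old and no treatment is named. NOD mice, which develop autoimmune diabetes, were the control strain. NOD.Idd2 is by its name the NOD strain congenic for Idd2, a diabetes locus known to lie on chromosome 9, and the comparison of the strains asks what the locus does to expression. The labels give neither the donor strain and interval of the locus nor the isolation markers, and they do not say whether each library is 1 mouse, so each p-value is set by the spread of these libraries alone, which may be technical.

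Proteins that enter the secretory pathway are folded in the ER by chaperones and disulfide isomerases, and those that fail to fold are drawn back to the cytosol and degraded. When unfolded protein accumulates, the sensors encoded by Ern1, Eif2ak3 and Atf6 act through the splicing of Xbp1 mRNA, through translation of Atf4 and through release of the Atf6 protein's own transcription factor domain, and together these raise the transcription of chaperone, degradation and amino acid supply genes. The pathway is best known in the B lineage, where Xbp1 is required for plasma cells to secrete antibody. In dendritic cells, the Ern1 and Xbp1 branch is known to be active without added stress and to matter most in the conventional type 1 subset.

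The libraries carried the markers of their labels. The summed level of 8 B cell markers was 14155 to 14696 CPM (counts scaled to library depth, with TMM factors over all 12 libraries) in NOD B cells and 111 to 184 CPM in NOD dendritic cells, and that of 8 conventional dendritic cell markers was 9.64 to 11.2 and 3893 to 4196 CPM. Depth ran from 40344883 to 44632276 counts per library in B cells and from 8663421 to 30337812 in dendritic cells, the lowest being NOD.Idd2 replicate 3. In B cells, replicate 3 of both strains stood apart from the other 2 replicates, with a chi-square per gene of 37.6 to 43.4 against 7.40 and 7.88 between replicates 1 and 2. Transcripts of sex chromosomes also divided the cell types. Every B cell library held Xist, at 1564 to 2088 CPM, and 0 counts of 4 Y-linked genes, whereas no dendritic cell library exceeded 4 counts of Xist and all had Ddx3y, at 239 to 306 CPM. Strain comparisons were therefore made within 1 sex, and cell type and sex cannot be told apart in any comparison of dendritic cells with B cells. Nor, in such bulk samples, can fewer cells of a type be told apart from less RNA per cell.

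Many members are known targets of short promoter elements, and their promoters were searched for these. The ER stress response element (ERSE), bound by the Atf6 protein with the CCAAT factor NF-Y, was searched as CCAAT and CCACG parted by 9 bases, ERSE-II as ATTGG and CCACG parted by 1 base, the core of an Xbp1 site (UPRE-like) as TGACGTGG, and the CARE-like site of the Atf4 protein as TGATGNAAN. Both strands were read in a window of 300 bases, from 250 bases before the RefSeq start to 50 after it on GRCm38.p6. Of the 40 members 34 were matched by symbol, and Atf6, Hyou1, Manf, Derl1, Sec61a1 and Sec11c were not. The ERSE letters stood in the window of 9 of the 34 matched members, against 37 of 27025 genes (0.137%) in the table, and the ERSE-II letters in 2, against 12 genes (0.0444%). ERSE and ERSE-II share the letters CCACG and, on opposite strands, CCAAT. CARE-like letters were found in 5 of 34 members against 4.50% of genes, and UPRE-like letters in none of the 34 against 0.714%. Of 109 other genes of the same pathways 86 were matched. ERSE letters stood in 1 of these (Ero1b), ERSE-II in 0, UPRE-like in 6 and CARE-like in 9. A match is a run of letters only, and binding was not measured.

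The ERSE matches are shown because they fell on 6 of the 9 matched chaperones and on none of the 4 matched transcription factors or 5 matched translocation genes. Capitals mark the fixed letters, read along the strand that carries them, 5′ to 3′, and Hsp90b1 had 2.
Hspa5: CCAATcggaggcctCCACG
Hsp90b1: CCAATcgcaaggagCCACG
Hsp90b1: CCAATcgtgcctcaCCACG
Calr: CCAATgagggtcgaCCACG
Canx: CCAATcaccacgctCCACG
Dnajc3: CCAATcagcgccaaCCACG
Creld2: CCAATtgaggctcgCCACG
Pdia6: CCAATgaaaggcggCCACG
Syvn1: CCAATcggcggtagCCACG
Derl3: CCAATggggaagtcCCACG

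The spacers of 9 bases differed among all of these sites. The Syvn1 match ended nearest the transcription start and the distal Hsp90b1 match lay farthest from it, beginning 44 and 212 bases before the RefSeq start. ERSE-II stood in Dnajb11, beginning 7 bases after the start, and in Herpud1, beginning 52 bases before it.
Dnajb11: ATTGGcCCACG
Herpud1: ATTGGgCCACG

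The CARE-like matches are shown because 3 of the 4 integrated stress response targets carried one.
Atf3: TGATGcAAg
Herpud1: TGATGcAAc
Trib3: TGATGtAAa
Asns: TGATGaAAc
Chac1: TGATGcAAc

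Whole windows are printed for 5 members on which the results turn: Hsp90b1 and Hspa5, the main lumenal chaperones, Herpud1 and Syvn1, partners in degradation that differed in opposite directions between the cell types, and Atf3, whose cell type difference had the largest size among the members. Each run is the 250 bases before the RefSeq start on GRCm38.p6, in the direction of the gene, with ERSE, ERSE-II or CARE-like letters in capitals. Where the element lies on the other strand, its reverse complement is capitalised. Hsp90b1 is at chr10:86705445-86705694 on the minus strand, Hspa5 at chr2:34771840-34772089 on the plus strand, Herpud1 at chr8:94386179-94386428 on the plus strand, Syvn1 at chr19:6046326-6046575 on the plus strand and Atf3 at chr1:191183334-191183583 on the minus strand.
Hsp90b1: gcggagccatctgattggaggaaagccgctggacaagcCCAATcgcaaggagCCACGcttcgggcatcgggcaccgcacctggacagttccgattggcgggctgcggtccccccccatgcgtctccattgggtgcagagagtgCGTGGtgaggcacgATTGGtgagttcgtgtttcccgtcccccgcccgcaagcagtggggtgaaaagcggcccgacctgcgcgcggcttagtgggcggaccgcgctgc
Hspa5: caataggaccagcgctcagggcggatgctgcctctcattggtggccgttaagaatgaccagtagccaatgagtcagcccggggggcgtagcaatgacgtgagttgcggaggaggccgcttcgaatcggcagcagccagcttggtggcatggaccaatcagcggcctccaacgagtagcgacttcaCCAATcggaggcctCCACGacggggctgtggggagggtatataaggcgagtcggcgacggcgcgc
Herpud1: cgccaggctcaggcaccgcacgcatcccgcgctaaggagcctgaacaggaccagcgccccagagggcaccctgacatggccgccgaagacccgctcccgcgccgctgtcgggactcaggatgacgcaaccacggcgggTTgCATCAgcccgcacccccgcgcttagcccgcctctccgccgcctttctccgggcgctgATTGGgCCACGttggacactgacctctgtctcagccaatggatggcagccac
Syvn1: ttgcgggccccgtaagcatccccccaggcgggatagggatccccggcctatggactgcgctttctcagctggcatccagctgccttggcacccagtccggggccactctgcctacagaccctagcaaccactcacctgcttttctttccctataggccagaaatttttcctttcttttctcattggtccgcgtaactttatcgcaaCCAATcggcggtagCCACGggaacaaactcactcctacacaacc
Atf3: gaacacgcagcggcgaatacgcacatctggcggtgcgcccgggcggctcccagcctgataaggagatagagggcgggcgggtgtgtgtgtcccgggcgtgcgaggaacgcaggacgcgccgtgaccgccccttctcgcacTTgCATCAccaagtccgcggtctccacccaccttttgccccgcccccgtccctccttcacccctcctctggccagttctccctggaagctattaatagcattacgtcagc

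Per kb of exon, the same 4 lumenal genes led in every group. Hsp90b1, which encodes the ER member of the Hsp90 family, was at 255 and 219 CPM per kb in B cells of NOD and NOD.Idd2, and at 176 and 202 in their dendritic cells. In the same order Calr, the lectin chaperone calreticulin, was at 235, 229, 266 and 279.9, Hspa5, the ER Hsp70 known as BiP, at 185, 171, 192 and 212, and Pdia3, the isomerase that works with calreticulin, at 134, 124, 171 and 179 CPM per kb. The order below them depended on the cell type. Syvn1 ranked 9 of 40 in both B cell groups and 34 in both dendritic cell groups, whereas Herpud1 ranked 10 and 5, and Sdf2l1 17 and 21 in B cells and 8 in dendritic cells. Chac1, a glutathione-degrading enzyme induced by the Atf4 branch, was the lowest member in every group, with 20, 11, 21 and 8 counts over the 3 libraries of each group. It was the 1 member that did not pass the filter on low counts, so 39 members were tested. All 40 members together took 0.734% ± 0.0130 (SD, n = 3) of the counts in NOD B cells, 0.697% ± 0.00711 in NOD.Idd2 B cells, 0.736% ± 0.0445 in NOD dendritic cells and 0.789% ± 0.0234 in NOD.Idd2 dendritic cells.

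**Figure D1:**
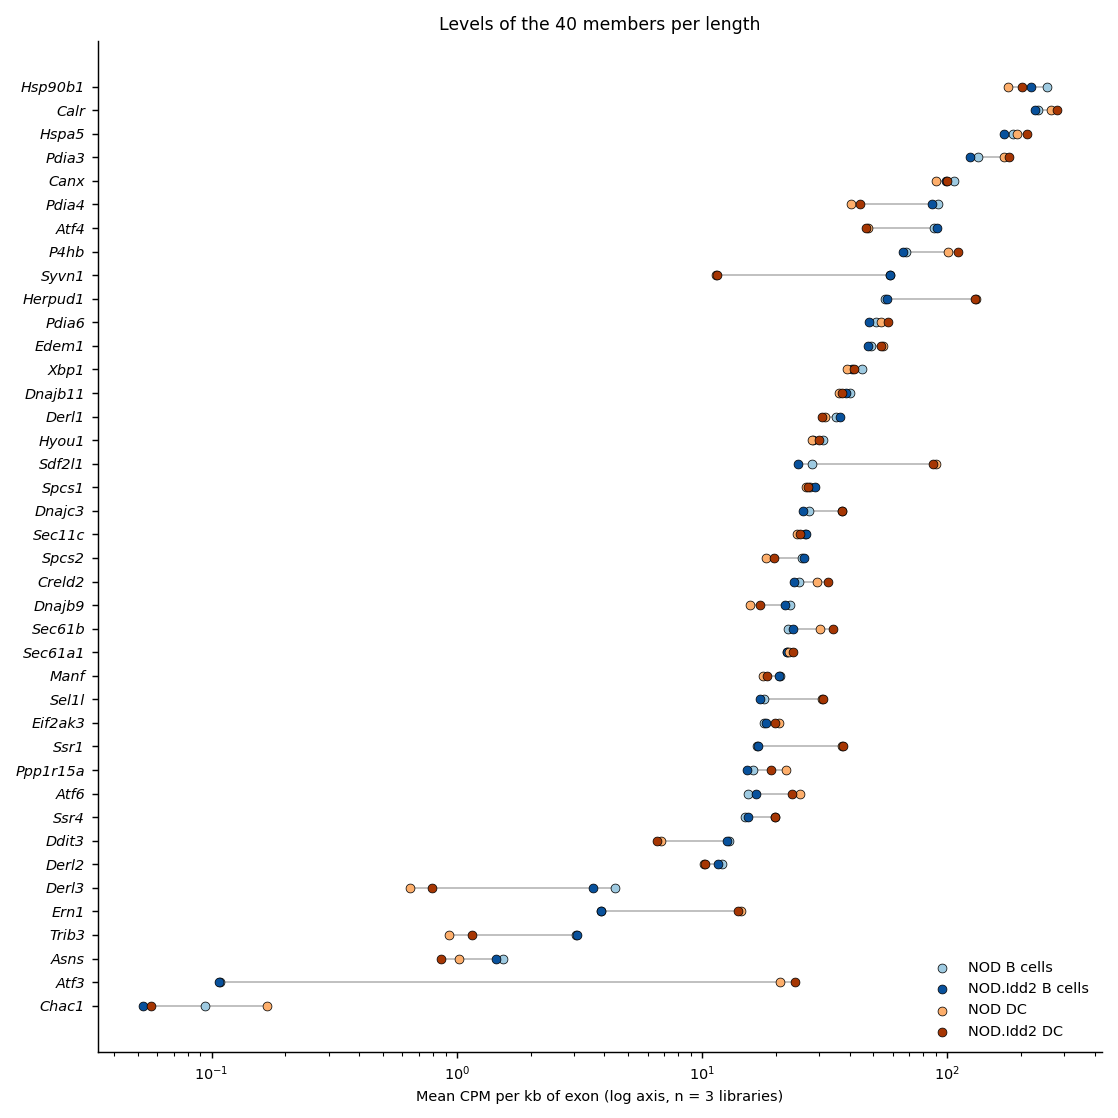
Mean level of each of the 40 members in CPM per kb of exon (log axis, n = 3 libraries), 1 point per group, ordered by the level in NOD B cells. Hsp90b1, Calr, Hspa5 and Pdia3 lead in all groups, Syvn1 and Derl3 lie lower in dendritic cells, and Atf3 and Ern1 lie higher.

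The strains were compared first in B cells. Most chaperone and isomerase transcripts were slightly less abundant in NOD.Idd2 B cells, and no member passed the test. Hsp90b1 had the smallest p-value: its level was 1022, 957 and 1102 CPM in the 3 NOD libraries and 886, 861 and 900.1 CPM in the 3 NOD.Idd2 libraries. All NOD.Idd2 libraries lay below all NOD libraries. The difference was log2 -0.22, SE 0.057, and edgeR's quasi-likelihood test gave a Benjamini-Hochberg adjusted p of 0.606. With the replicate number as a block, which pairs the B cell libraries, Hsp90b1 fell in NOD.Idd2 (log2 -0.22, SE 0.035, edgeR adjusted p = 0.0145), and over its 12 alternatives the adjusted p ran from 0.0145 to 0.998. The other alternative that called it was DESeq2 (adjusted p = 0.0495), and without both replicate 3 libraries, chosen after seeing the data, it was not called (log2 -0.19).

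By edgeR's quasi-likelihood test 0 of 39 members were called between the strains in B cells, where 0.160% of all 15011 genes tested were called. At an unadjusted p under 0.05 there were 8 members, against 6.40% of all genes. DESeq2 called 1 member, and so did edgeR with the replicate block, where the background was 1.04% of all genes in both directions and 0.540% in that of Hsp90b1. By direction, 13 members were above 0 and 26 below, with a median log2 difference of -0.043 against 0.0066 over all genes. Of all genes tested 47.4% were below 0. All 11 chaperones and all 4 isomerases were below 0, with medians of -0.084 and -0.090, and over all alternatives 10 or 11 chaperones and all 4 isomerases stayed there, with 10 and 4 without both replicate 3 libraries. The 3 sensors were above 0, but 2 of them with RLE scaling, DESeq2 or no filter, and 6 of the 7 translocation genes were above 0, but 3 without NOD replicate 3 or without NOD.Idd2 replicate 1. In pairs by replicate number, 10 of the 11 chaperones and all 4 isomerases were below 0 in all 3 pairs. The exception was Dnajb9, a co-chaperone of Hspa5 and a known target of Xbp1, at 62.1, 55.7 and 56.2 CPM in NOD and 54.8, 66.9 and 45.5 in NOD.Idd2. The share of all genes below 0 in all 3 pairs was not counted. Members were measured in the same libraries, so their signs are not independent and these counts are a description only.

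Of the chaperones, Hspa5 was at 800.2, 769 and 779.6 CPM in NOD and 724, 731 and 708 CPM in NOD.Idd2 B cells, without overlap (log2 -0.12, SE 0.036, edgeR adjusted p = 0.726). Hyou1, the nucleotide exchange factor of Hspa5, was at 227, 215 and 232 CPM in NOD and 204, 202 and 207 CPM in NOD.Idd2, also without overlap (log2 -0.14, SE 0.042, edgeR adjusted p = 0.726). Neither difference passed the test. Among the 39 tested members 7 had all NOD.Idd2 libraries below all NOD libraries, where 6.04% of all genes did: Hsp90b1, Hspa5, Hyou1, the co-chaperone gene Dnajb11, the isomerase genes Pdia4 and Pdia6, and Derl2 of the retrotranslocation machinery. In the other direction the 2 members were Atf6 and Ssr4, a subunit of the translocon-associated complex, where 6.80% of all genes did. The summed chaperone level was 3738, 3561 and 3738 CPM in NOD and 3430, 3341 and 3355 CPM in NOD.Idd2 B cells, and these ranges did not overlap. Without Hsp90b1, which made up 27.9% of the NOD sum, the log2 ratio of the sums was -0.089 in place of -0.12.

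No sensor or transcription factor was called between the strains in B cells. Ern1, the kinase and nuclease that splices Xbp1 mRNA, was at 30.8, 30.8 and 33.2 CPM in NOD and 30.0, 33.2 and 31.9 CPM in NOD.Idd2. Eif2ak3, the kinase that slows translation, was at 106, 104 and 113 CPM in NOD and 109.6, 108 and 111 CPM in NOD.Idd2, and in both genes the groups overlapped. Atf6, the membrane-bound transcription factor, was at 146, 139 and 139.8 CPM in NOD and 156, 154 and 152 CPM in NOD.Idd2, with no overlap (log2 0.11, SE 0.038, edgeR adjusted p = 0.75). It was the member with the largest positive difference in B cells. Xbp1, the factor that drives secretory expansion, was at 152, 139 and 148 CPM in NOD and 139.9, 130.2 and 130.2 CPM in NOD.Idd2, where the groups overlapped by 1 library (log2 -0.13, SE 0.049, edgeR adjusted p = 0.757). Spliced and unspliced Xbp1 mRNA are not separated in a count per gene. Atf4 was at 202, 196 and 225 CPM in NOD and 205, 215 and 221 CPM in NOD.Idd2, and Ddit3, the factor known as CHOP, at 23.1, 20.1 and 23.3 CPM in NOD and 21.0, 22.9 and 21.2 CPM in NOD.Idd2, both with overlap. Atf3, a stress-induced partner of the Atf4 protein, was near the limit of detection in B cells, with 30 counts over the 3 NOD and 29 over the 3 NOD.Idd2 libraries.

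In the degradation group Derl3, the Derlin whose transcript is known from secretory cells, had the largest fitted difference of any member in B cells. It was at 7.54, 8.80 and 10.1 CPM in NOD and 6.90, 7.61 and 7.01 CPM in NOD.Idd2, where the highest NOD.Idd2 library stood just above the lowest NOD library (log2 -0.30, SE 0.12, edgeR adjusted p = 0.774). Sdf2l1, a component of Hspa5 chaperone complexes, was at 34.3, 30.5 and 28.8 CPM in NOD and 29.7, 26.2 and 25.6 CPM in NOD.Idd2, with overlap (log2 -0.20, SE 0.083, edgeR adjusted p = 0.776). The remaining degradation, stress response and translocation members had log2 differences between -0.10 (Asns) and 0.071 (Spcs1), and none passed the test. Transcripts of plasma cells, which hold much of this machinery, were not called between the strains: edgeR's test and DESeq2 each called 0 of 12 plasma cell and plasmablast markers, and 1 had an unadjusted p under 0.05. Their summed level was 1145 to 1244 CPM in NOD and 1150 to 1280 CPM in NOD.Idd2 B cells, with no marker at 0 counts in either. Most of that sum was Irf4, Tnfrsf13b and Mzb1, at 334, 342 and 197 CPM on average in NOD and 341, 371 and 196 CPM in NOD.Idd2. Of the 12 markers 7 were above 0 and 5 below. Jchain was at 206, 151 and 164 CPM in NOD and 194, 138 and 121 CPM in NOD.Idd2, and Ly6k at 6.01 and 3.35 CPM on average. The part of such cells in the member differences was not tested.

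**Figure D2:**
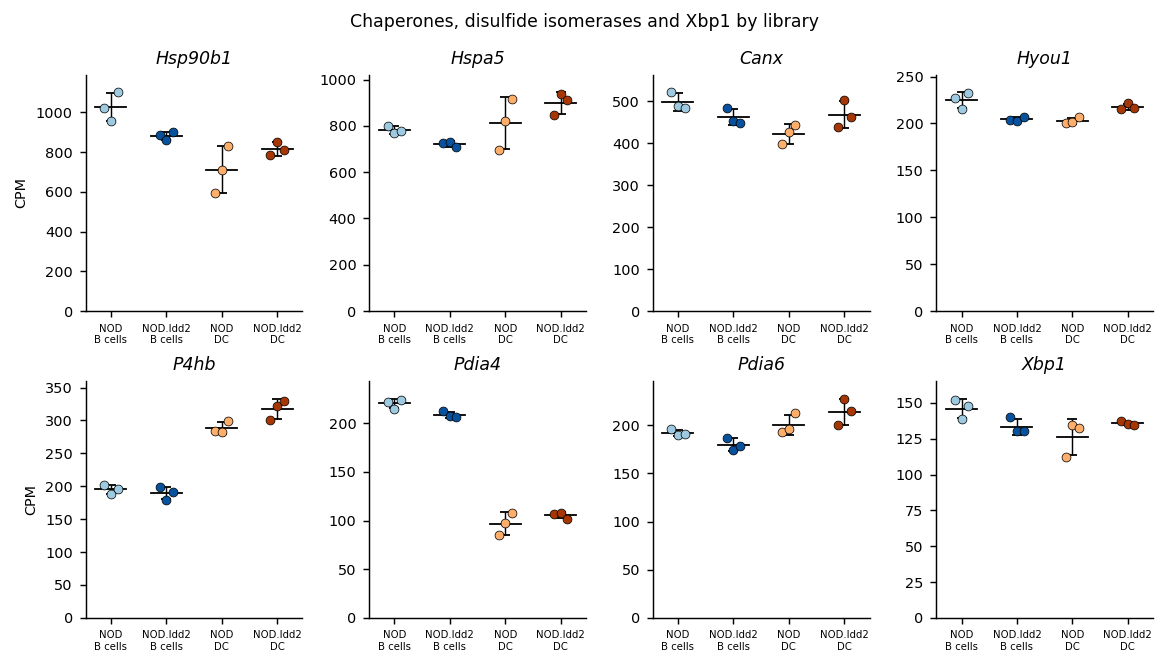
Level in CPM of 8 members in each library (points), with the group mean (line) and SD (bars), n = 3 per group and an axis from 0 in every panel. In B cells the NOD.Idd2 points of Hsp90b1, Hspa5, Hyou1, Pdia4 and Pdia6 lie below the NOD points, while in dendritic cells the groups overlap for all but Hyou1, P4hb and Xbp1, whose NOD.Idd2 points lie above.

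In dendritic cells the sign was mostly the other way and again no member passed the test. Hsp90b1 was at 593, 711 and 829 CPM in the NOD libraries and 784, 849.8 and 812 CPM in the NOD.Idd2 libraries. NOD replicate 1 was the lowest and NOD replicate 3 lay among the NOD.Idd2 libraries. The difference was log2 0.21, SE 0.094, with an edgeR adjusted p of 0.414. Leaving out NOD replicate 3 gave log2 0.34 with an adjusted p of 0.038 and no filter on low counts gave 0.00251, within a range of 0.00251 to 0.825 over 11 alternatives. Hspa5 ran in the same order, at 697, 822 and 918 CPM in NOD and 846, 939 and 911 CPM in NOD.Idd2 (log2 0.16, SE 0.084, edgeR adjusted p = 0.515). The spread among the NOD dendritic cell libraries was thus wider than the strain difference for both chaperones.

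By edgeR's quasi-likelihood test 0 of 39 members were called between the strains in dendritic cells, where 1.29% of all 14441 genes tested were called. DESeq2 also called 0 members. At an unadjusted p under 0.05 there were 5 members, against 11.3% of all genes. Of the 39 members 29 were above 0 and 10 below, with a median of 0.068 against 0.0006 over all genes. Of all genes tested 49.8% were below 0. Above 0 were 10 of 11 chaperones (median 0.12), all 4 isomerases (0.13) and all 7 translocation genes (0.056; 5 without NOD replicate 1 and 6 in the fit of all 12 libraries), and below 0 were all 3 sensors, or 2 without NOD replicate 1 or 2. Without NOD replicate 1, the library with the lowest chaperone sum, 9 of 11 chaperones were above 0 and their median was 0.064 in place of 0.12. Without the shallow NOD.Idd2 replicate 3 11 of 11 were above 0, with a median of 0.11. The summed chaperone level was 3101, 3502 and 3795 CPM in NOD and 3609, 3943 and 3760 CPM in NOD.Idd2, and the groups overlapped.

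The smallest p-values among the members in dendritic cells belonged to P4hb, Canx, Hyou1 and the translocon gene Sec61b. P4hb, the founding disulfide isomerase, was at 284, 283 and 299 CPM in NOD and 301, 322 and 329.9 CPM in NOD.Idd2, with no overlap (log2 0.15, SE 0.053, edgeR adjusted p = 0.259). Canx, the membrane-bound lectin chaperone calnexin, was at 398, 427 and 445 CPM in NOD and 440.2, 503 and 464 CPM in NOD.Idd2, where the groups overlapped by 1 library (log2 0.16, SE 0.060, edgeR adjusted p = 0.296). Hyou1 was at 200.5, 202 and 207 CPM in NOD and 216, 222 and 216 CPM in NOD.Idd2, with no overlap (log2 0.12, SE 0.044, edgeR adjusted p = 0.301). These differences were 1.09-fold to 1.12-fold in size, and none passed. Sec61b, a small subunit of the translocation channel, was at 35.4, 38.4 and 41.7 CPM in NOD and 43.2, 46.5 and 40.7 CPM in NOD.Idd2, with overlap. Among the 39 tested members 4 had all NOD.Idd2 libraries above all NOD libraries, where 7.06% of all genes did: Xbp1, Hyou1, P4hb and Sec61a1, the pore-forming subunit of the channel. Asns, asparagine synthetase, was the 1 member in the other direction, where 9.41% of all genes lay, at 2.79, 2.70 and 2.89 CPM in NOD and 2.17, 2.63 and 2.27 CPM in NOD.Idd2.

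Of the regulators in dendritic cells, Xbp1 was at 112, 135 and 133 CPM in NOD and 137, 135 and 135 CPM in NOD.Idd2 (log2 0.12, SE 0.066, edgeR adjusted p = 0.553), with NOD replicate 1 lowest again. Atf3 was at 38.7, 35.3 and 60.6 CPM in NOD and 59.0, 47.4 and 48.4 CPM in NOD.Idd2, and its highest library was NOD replicate 3. Its difference was log2 0.22, SE 0.17 with an edgeR adjusted p of 0.688. Without that library it was log2 0.50, SE 0.096, adjusted p = 0.0207, in a range of 0.0207 to 0.998 over 11 alternatives. Ern1 was at 128, 115 and 112 CPM in NOD and 121, 113 and 109 CPM in NOD.Idd2, Eif2ak3 at 109.7, 135 and 127 CPM in NOD and 119, 126 and 115 CPM in NOD.Idd2, and Atf6 at 246, 235 and 215 CPM in NOD and 214, 212 and 221 CPM in NOD.Idd2, all with overlap. Atf4 was at 114, 110.0 and 112 CPM in NOD and 113, 106 and 111 CPM in NOD.Idd2 and Ddit3 at 10.3, 11.9 and 12.9 CPM in NOD and 11.5, 10.8 and 11.5 CPM in NOD.Idd2, and in both the strains overlapped.

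Plasma cell transcripts varied among the dendritic cell libraries. Jchain, the joining chain of secreted antibody, was at 21.9, 44.8 and 51.3 CPM in NOD and 109, 31.1 and 108 CPM in NOD.Idd2 dendritic cells, and 8 of 9 tested plasma cell markers were above 0, with 0 called by edgeR's test or DESeq2 and 1 at an unadjusted p under 0.05. The summed level of the 12 markers was 764 to 829.9 CPM in NOD and 791 to 878 CPM in NOD.Idd2, with no marker at 0 counts in either group. Most of that sum was Slamf7, at 485 CPM on average in NOD and 480.3 CPM in NOD.Idd2, while Mzb1 was at 0.418 and 1.05 CPM. The part of plasma cell transcripts in the member differences was not tested.

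**Figure D3:**
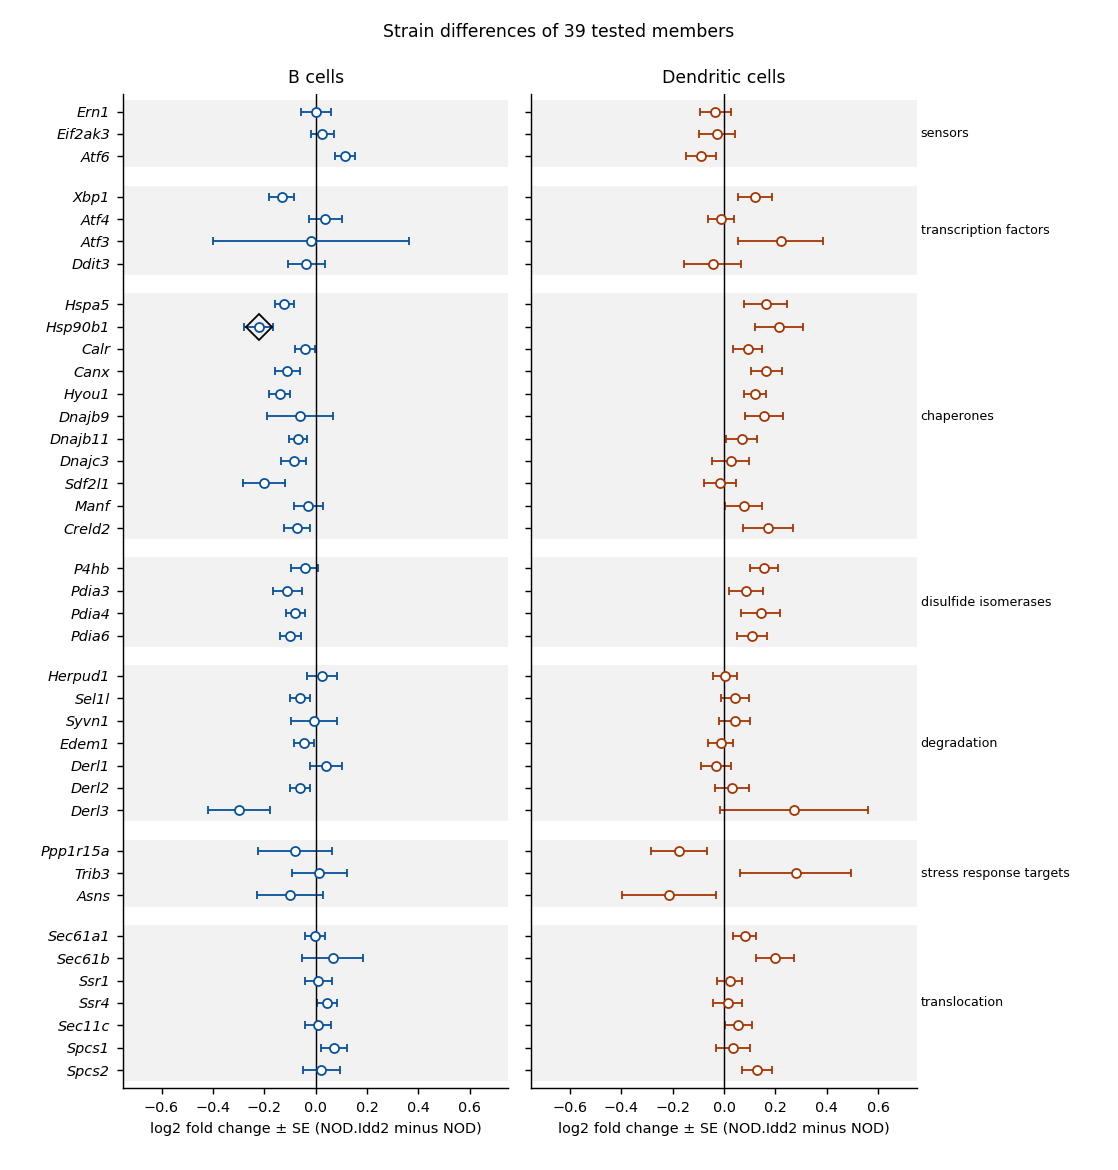
Fitted log2 fold change of NOD.Idd2 against NOD with its SE for the 39 tested members, in B cells (left) and dendritic cells (right), grouped by role, from 3 libraries per group. Open circles did not pass the test, which is every member, and the diamond marks Hsp90b1, called in B cells with the replicate block. Chaperones and isomerases lie below 0 in B cells and, but for Sdf2l1, above 0 in dendritic cells.

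The difference between the strain effects was then tested in a fit of all 12 libraries, as the effect in dendritic cells minus that in B cells. It uses the same libraries as the strain comparisons, so its signs are not independent of theirs. By edgeR's quasi-likelihood test 0 of 39 members were called, where 0.109% of all 16588 genes were, and 8 members had an unadjusted p under 0.05 against 8.22% of all genes. DESeq2 called 1 member, Hyou1. All 11 chaperones and all 4 isomerases were above 0, with medians of 0.20 and 0.18, and these counts held in each of the 16 alternatives of this comparison. Of all genes tested 53.8% were below 0. Hyou1 had the smallest p: log2 0.24, SE 0.056, unadjusted p = 0.000986 and adjusted p = 0.19 by edgeR's test, 0.0874 with the replicate block and 0.00999 by DESeq2. Over its 16 alternatives the adjusted p ran from 0.00999 to 0.484. For Hsp90b1 the difference was log2 0.42, SE 0.13 (edgeR adjusted p = 0.414), for Canx log2 0.26, SE 0.085 (0.435), and for Atf6, in the other direction, log2 -0.22, SE 0.070 (0.396). The strain effects are therefore not shown to differ between the cell types for any member by the main test.

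The position of Hyou1 was set beside those of the called genes. Hyou1 lies at chr9:44379490-44392369 on GRCm38 (GENCODE vM21), on the chromosome of the Idd2 locus. Of the 24 genes called between the strains in B cells 10 lie on chromosome 9, between positions 37227585 and 48431959, with 6 starting before Hyou1 and 4 after it. In dendritic cells 20 of the 186 called genes lie on chromosome 9, over the wider span from 37227585 to 124147699, with 9 starting before Hyou1 and 11 after. The share of all tested genes on this chromosome was not counted, so these counts give positions only. Manf, an ER-resident secreted factor that binds Hspa5, is the other member on this chromosome, at chr9:106838312-106891979, where 0 of the B cell and 1 of the dendritic cell calls start beyond it. It was at 78.9, 72.3 and 69.8 CPM in NOD and 75.5, 72.0 and 69.5 CPM in NOD.Idd2 B cells, with overlap. Whether Hyou1 itself lies in the exchanged interval is not stated in the sources used here.

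Between the cell types most members were called, in both directions, as were most genes tested. By edgeR's quasi-likelihood test 34 of 39 members were called in NOD, 17 higher and 17 lower in dendritic cells, where 76.4% of all 16588 genes were called, 37.7% higher and 38.7% lower. In NOD.Idd2 29 of 39 were called, 18 higher and 11 lower, where 75.7% of all genes were, 36.7% higher and 38.9% lower. In both strains and the same direction 26 members were called, 15 higher and 11 lower, which is 76.5% of the NOD calls and 89.7% of the NOD.Idd2 calls. Over all genes the overlap was 91.6% and 92.5%. The sizes were mostly small: 8 of 39 members (20.5%) differed at least 2-fold in both strains, against 39.7% of all genes.

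Among the sensors Ern1 had the largest difference. It was at 30.8, 30.8 and 33.2 CPM in NOD B cells and 128, 115 and 112 CPM in NOD dendritic cells, which is 3.75-fold higher (log2 1.91, SE 0.065, edgeR adjusted p = 2.26e-11), and 3.61-fold higher in NOD.Idd2. Every dendritic cell library exceeded every B cell library. Atf6 was also higher in dendritic cells, 1.64-fold in NOD and 1.40-fold in NOD.Idd2, with 215 to 246 CPM in the NOD and 212 to 221 CPM in the NOD.Idd2 libraries against 139 to 156 CPM in B cells. Eif2ak3 was 1.15-fold higher in NOD (log2 0.20, SE 0.068, edgeR adjusted p = 0.0156) but was not called in NOD.Idd2, where 3 of 11 alternatives called it. In NOD its call was lost without B cell replicate 1 or 2 or dendritic cell replicate 2 (adjusted p from 0.000343 to 0.15 over its 11 alternatives).

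The transcription factors went in opposite directions. Atf3 was at 0.223, 0.266 and 0.210 CPM in NOD B cells and 38.7, 35.3 and 60.6 CPM in NOD dendritic cells, a fitted 190.2-fold difference (log2 7.57, SE 0.28, edgeR adjusted p = 5.34e-11). In NOD.Idd2 it was at 0.246, 0.307 and 0.138 CPM in B cells and 59.0, 47.4 and 48.4 CPM in dendritic cells (log2 7.79, SE 0.28). The Atf3 bases printed above carry 1 CARE-like run, 111 bases before the RefSeq start. GENCODE vM21 extends the gene upstream of that window, to position 191218039 of chromosome 1. No window at that end was searched, and which start these cells use is not known. Atf4 was lower in dendritic cells, 1.86-fold in NOD and 1.94-fold in NOD.Idd2, and Ddit3 1.90-fold and 1.93-fold. Atf4 is known to be controlled mainly through translation, which RNA counts do not show. Xbp1 was lower in NOD dendritic cells (log2 -0.21, SE 0.066, edgeR adjusted p = 0.012). That call was lost without NOD dendritic cell replicate 1 and in a fit of the 6 NOD libraries alone (adjusted p from 0.00379 to 0.1 over its 11 alternatives), and in NOD.Idd2 the difference was 0.025 (SE 0.066), not called.

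Of the 11 chaperones 4 were higher and 6 lower in NOD dendritic cells, and 6 higher and 1 lower in NOD.Idd2. Over all genes 37.7% were higher and 38.7% lower in NOD, and 36.7% and 38.9% in NOD.Idd2. Sdf2l1 had the largest rise in both. It was at 34.3, 30.5 and 28.8 CPM in NOD B cells and 93.7, 102 and 103 CPM in NOD dendritic cells (log2 1.67, SE 0.082, edgeR adjusted p = 9.28e-10), and at 29.7, 26.2 and 25.6 CPM in B cells and 94.2, 106 and 91.3 CPM in dendritic cells of NOD.Idd2 mice (log2 1.84, SE 0.083). Dnajc3, a co-chaperone that also inhibits the Eif2ak3 kinase, was at 145, 143 and 136 CPM in NOD B cells and 169.9, 194 and 209.6 CPM in NOD dendritic cells, 1.35-fold higher. In NOD.Idd2 it was 1.44-fold higher. Creld2, a stress-induced ER protein, was at 35.2, 32.8 and 34.3 CPM in B cells and 34.9, 39.5 and 46.0 CPM in dendritic cells of NOD mice (log2 0.24, SE 0.091, edgeR adjusted p = 0.0304) and rose 1.38-fold in NOD.Idd2. In NOD its call was lost without B cell replicate 2 or 3 or dendritic cell replicate 2 or 3 (adjusted p from 0.00207 to 0.0982 over its 11 alternatives).

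On the lower side Dnajb9 was at 62.1, 55.7 and 56.2 CPM in NOD B cells and 37.2, 41.2 and 41.2 CPM in NOD dendritic cells (log2 -0.54, SE 0.11, edgeR adjusted p = 0.000826). In NOD.Idd2 it was at 54.8, 66.9 and 45.5 CPM in B cells and 40.6, 46.2 and 45.3 CPM in dendritic cells, and that call was lost without B cell replicate 2 or dendritic cell replicate 1 (adjusted p from 0.00107 to 0.103 over its 11 alternatives). Hsp90b1 was 1.44-fold lower in NOD dendritic cells (log2 -0.53, SE 0.10, edgeR adjusted p = 0.00024) and was not called in NOD.Idd2 (log2 -0.11, SE 0.095). Canx followed the same pattern, at log2 -0.24 (edgeR adjusted p = 0.00307) in NOD and 0.019 in NOD.Idd2, and Manf was called in NOD (-0.23) and not in NOD.Idd2 (-0.15). The Manf call was lost without NOD B cell replicate 1 or dendritic cell replicate 1 (adjusted p from 0.00812 to 0.0929 over its 11 alternatives), and in NOD.Idd2 Manf was called without dendritic cell replicate 2 (adjusted p from 0.012 to 0.488 over its 11 alternatives). Hyou1 was the 1 member called in opposite directions, as were 11 of all 16588 genes tested. It was lower in NOD (log2 -0.15, SE 0.039, edgeR adjusted p = 0.00428) and higher in NOD.Idd2 (log2 0.093, SE 0.040, 0.0488). The NOD.Idd2 call was lost with the replicate block, with no filter, and without B cell replicate 1 or 2 or dendritic cell replicate 2 (adjusted p from 0.00958 to 0.196 over its 11 alternatives). Hspa5 was not called in NOD (log2 0.054, SE 0.078) and was called in NOD.Idd2 (log2 0.32, SE 0.078, edgeR adjusted p = 0.00271). In NOD it was called as higher without dendritic cell replicate 1 (log2 0.18), and without replicate 3 the difference was -0.00722 (adjusted p from 0.0122 to 0.929 over its 11 alternatives). Calr was higher in both strains (0.18 and 0.29 on the log2 scale), a call lost in NOD without dendritic cell replicate 2 (adjusted p from 0.000172 to 0.0584 over its 11 alternatives). Dnajb11 was lower in NOD (-0.16) and not called in NOD.Idd2, and its NOD call was lost without dendritic cell replicate 1 and in the fit of the 6 NOD libraries (adjusted p from 0.019 to 0.244 over its 11 alternatives).

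The isomerases parted in both strains. Pdia4, an isomerase with several thioredoxin-like domains, was at 222, 215 and 224 CPM in NOD B cells and 84.9, 97.5 and 108 CPM in NOD dendritic cells, 2.28-fold lower (log2 -1.19, SE 0.070, edgeR adjusted p = 5.86e-09). In NOD.Idd2 it was 1.98-fold lower. P4hb was at 202, 188 and 195 CPM in NOD B cells and 284, 283 and 299 CPM in NOD dendritic cells, 1.48-fold higher, and 1.67-fold higher in NOD.Idd2. Pdia3, known also as a part of the peptide loading complex of MHC class I, was at 440.0, 410.0 and 408 CPM in B cells and 487, 536 and 584 CPM in dendritic cells of NOD mice, 1.28-fold higher, and 1.44-fold higher in NOD.Idd2. Pdia6, which binds the sensor encoded by Ern1, was at 196, 190.1 and 191 CPM in B cells and 193, 196 and 212 CPM in dendritic cells of NOD mice, not called, and was 1.19-fold higher in NOD.Idd2.

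All 7 degradation genes were called in both strains, 3 higher and 4 lower, where 76.4% and 75.7% of all genes were called in NOD and NOD.Idd2. The call of Derl1 in NOD and that of Derl2 in NOD.Idd2 were lost under most alternatives. Syvn1 and Sel1l encode the ubiquitin ligase Hrd1 and its partner, and Herpud1 encodes a membrane protein that joins them. Syvn1 was at 262, 271 and 322 CPM in NOD B cells and 52.2, 55.3 and 58.2 CPM in NOD dendritic cells, 5.16-fold lower (log2 -2.37, SE 0.081, edgeR adjusted p = 2.28e-11). In NOD.Idd2 it was at 268, 283 and 303 CPM in B cells and 58.6, 55.6 and 54.2 CPM in dendritic cells, 5.06-fold lower. Its partners went the other way. Sel1l was at 150.3, 152 and 157 CPM in NOD B cells and 245, 276 and 268 CPM in NOD dendritic cells, 1.71-fold higher, and 1.81-fold higher in NOD.Idd2. Herpud1 was at 129.5, 127 and 135 CPM in B cells and 295, 310.1 and 311 CPM in dendritic cells of NOD mice, 2.34-fold higher (log2 1.23, SE 0.053, edgeR adjusted p = 2.67e-10), and 2.28-fold higher in NOD.Idd2. Per kb of exon, Syvn1 and Herpud1 were at 58.7 and 55.9 CPM per kb in NOD B cells, and at 11.4 and 131 CPM per kb in NOD dendritic cells.

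The 3 Derlins, which help move substrates out of the ER, were all lower in dendritic cells. Derl3 was at 7.54, 8.80 and 10.1 CPM in NOD B cells and 1.60, 1.39 and 0.848 CPM in NOD dendritic cells, 6.89-fold lower (log2 -2.78, SE 0.20, edgeR adjusted p = 4.52e-08). In NOD.Idd2 it was at 6.90, 7.61 and 7.01 CPM in B cells and 1.51, 1.40 and 1.82 CPM in dendritic cells, 4.68-fold lower. Derl1 was 1.11-fold and 1.18-fold lower in NOD and NOD.Idd2, and Derl2 1.18-fold and 1.13-fold. The NOD call of Derl1 (edgeR adjusted p = 0.0414) was lost in 7 of 11 alternatives and the NOD.Idd2 call of Derl2 (0.0281) in 8 of 11. Edem1, which helps to route misfolded glycoproteins to degradation, was 1.12-fold higher in NOD and 1.13-fold higher in NOD.Idd2 dendritic cells. Syvn1 and Derl3 both carry the ERSE letters shown above and Herpud1 carries ERSE-II. Of the 9 members with ERSE letters 3 were called higher and 4 lower in NOD dendritic cells, and 5 and 2 in NOD.Idd2. Over all genes 37.7% were higher and 38.7% lower in NOD, and 36.7% and 38.9% in NOD.Idd2. Whether the letters bear on these differences was not tested.

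**Figure D4:**
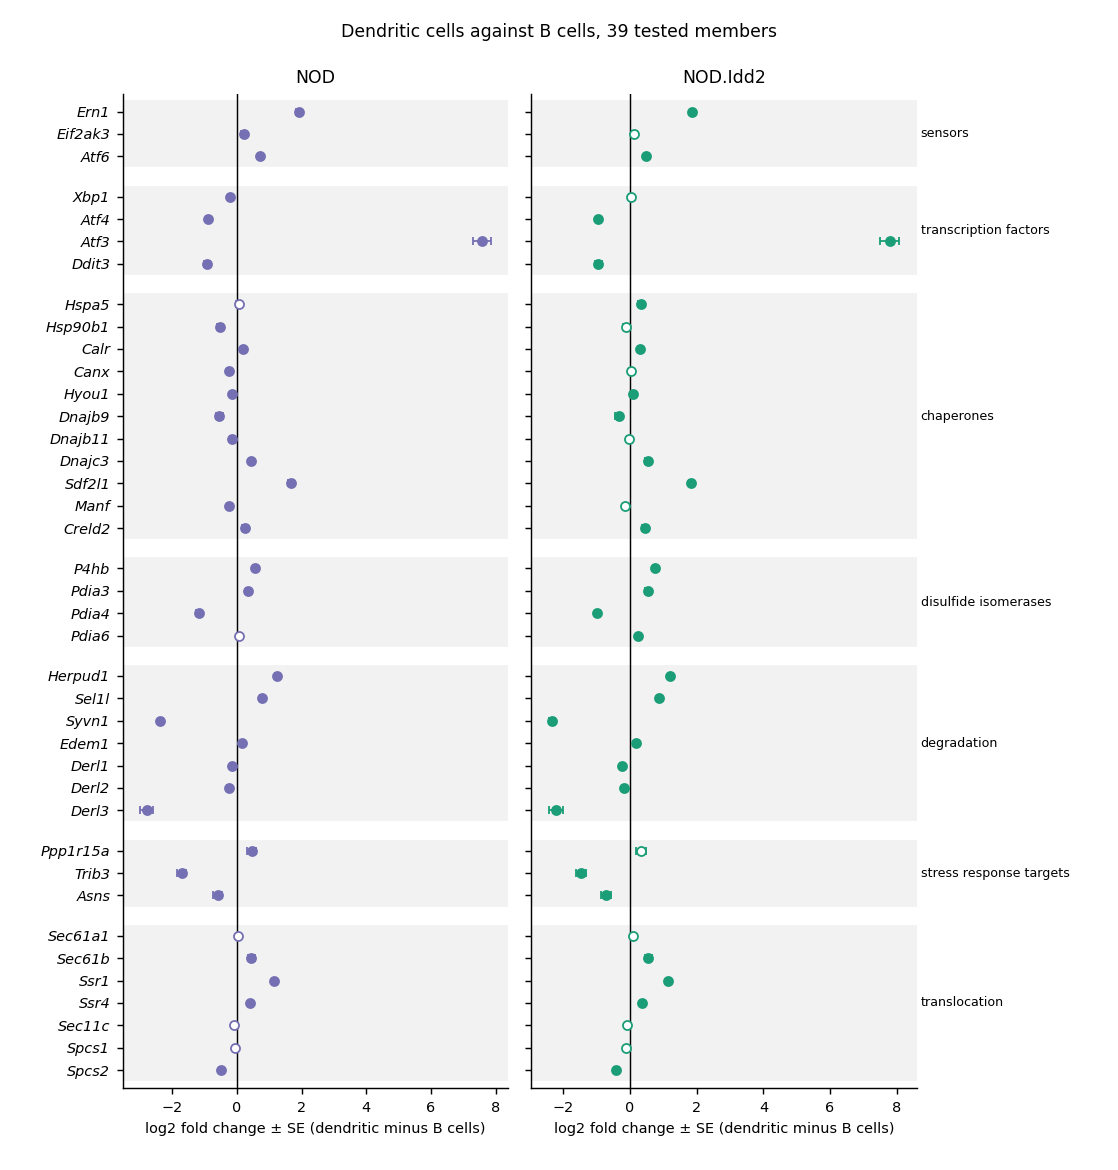
Fitted log2 fold change of dendritic cells against B cells with its SE for the 39 tested members, in NOD (left) and NOD.Idd2 (right), grouped by role, from 3 libraries per group. Filled circles passed the test (34 in NOD and 29 in NOD.Idd2) and open circles did not, and most members lie within 1 log2 unit of 0, with Atf3 near 7.57 and 7.79.

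Among the integrated stress response targets Trib3, a pseudokinase that feeds back on the Atf4 branch, was at 6.59, 5.73 and 7.15 CPM in NOD B cells and 1.89, 1.85 and 2.20 CPM in NOD dendritic cells, 3.28-fold lower (log2 -1.71, SE 0.15, edgeR adjusted p = 2.65e-07), and 2.74-fold lower in NOD.Idd2. Asns was at 4.61, 3.60 and 4.45 CPM in B cells and 2.79, 2.70 and 2.89 CPM in dendritic cells of NOD mice, 1.51-fold lower, and 1.66-fold lower in NOD.Idd2. Both moved in the direction of Atf4 and Ddit3. Ppp1r15a, the phosphatase subunit that restores translation, was at 40.3, 45.2 and 56.1 CPM in NOD B cells and 71.0, 52.7 and 69.8 CPM in NOD dendritic cells, 1.37-fold higher (edgeR adjusted p = 0.0126). That call was lost without NOD B cell replicate 1 (adjusted p from 0.00228 to 0.0602 over its 11 alternatives), and in NOD.Idd2 it was not called (adjusted p = 0.0528), where 7 of 11 alternatives called it.

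Of the 7 translocation and signal peptide removal genes 3 were higher and 1 lower in dendritic cells of both strains, where 76.4% of all genes were called in NOD and 75.7% in NOD.Idd2. Ssr1, the alpha subunit of the translocon-associated complex, was at 183, 175 and 167 CPM in NOD B cells and 373, 397 and 397 CPM in NOD dendritic cells, 2.22-fold higher (log2 1.15, SE 0.052, edgeR adjusted p = 4.06e-10), and 2.21-fold higher in NOD.Idd2. Ssr4, its delta subunit, was at 45.6, 46.3 and 46.6 CPM in B cells and 63.0, 62.4 and 59.2 CPM in dendritic cells of NOD mice, 1.33-fold higher. Sec61b was at 31.3, 29.7 and 24.4 CPM in NOD B cells and 35.4, 38.4 and 41.7 CPM in NOD dendritic cells, 1.35-fold higher. Sec61a1 was at 152, 148 and 150.1 CPM in B cells and 152, 152 and 152 CPM in dendritic cells of NOD mice, not called (log2 0.019, SE 0.036). Of the signal peptidase subunits, Spcs2 was at 116, 108 and 101 CPM in NOD B cells and 76.6, 72.2 and 81.4 CPM in NOD dendritic cells, 1.41-fold lower, and 1.33-fold lower in NOD.Idd2. Sec11c, a catalytic subunit, was at 172, 180.4 and 186 CPM in B cells and 161, 177 and 162 CPM in dendritic cells of NOD mice, and Spcs1 at 44.8, 42.2 and 40.7 CPM in B cells and 38.7, 43.3 and 41.0 CPM in dendritic cells, neither called in either strain. Sec11c was called as lower in NOD without B cell replicate 1 or dendritic cell replicate 2 (adjusted p from 0.0168 to 0.465 over its 11 alternatives), and Sec61a1 was called as higher in NOD.Idd2 in 6 of 11 alternatives.

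**Figure D5:**
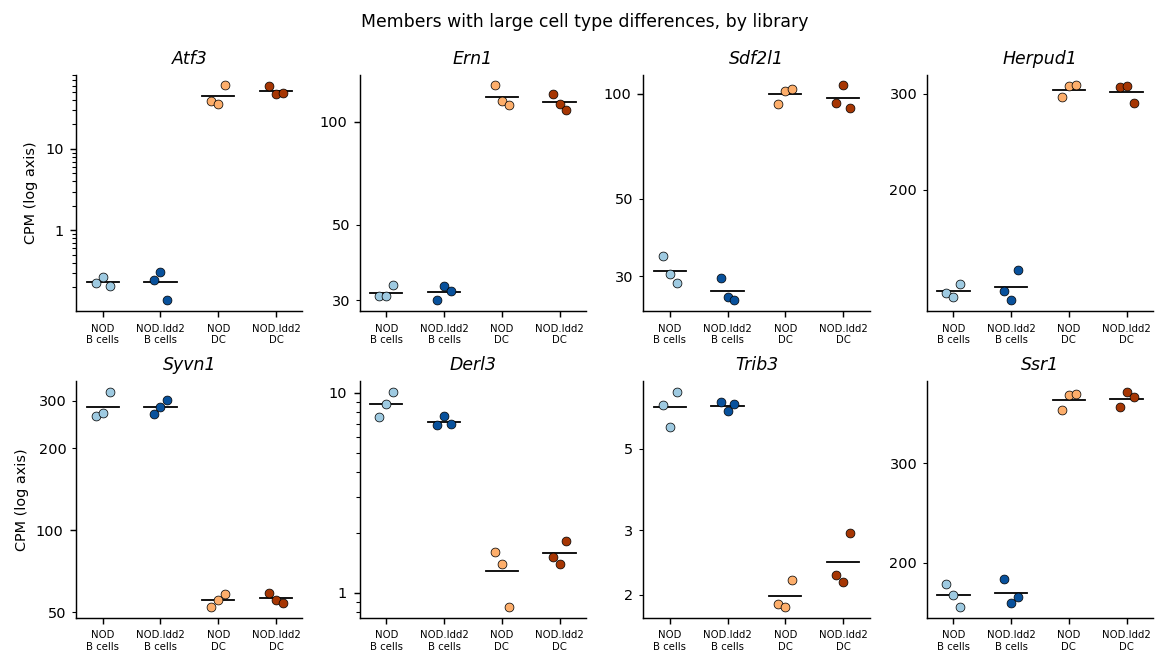
Level in CPM (log axis) of 8 members with large cell type differences in each library, with the group mean as a line and n = 3 per group. Atf3, Ern1, Sdf2l1, Herpud1 and Ssr1 are higher in all 6 dendritic cell libraries than in any B cell library, and Syvn1, Derl3 and Trib3 are lower in all 6.

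Plasma cell markers differed with the cell type as well. By edgeR's test 9 of the 11 tested were called lower and 1 higher in dendritic cells in NOD, and 7 lower and 1 higher in NOD.Idd2, and the NOD sum was 1145 to 1244 CPM in B cells and 764 to 829.9 CPM in dendritic cells. Slamf7, the 1 marker called higher, made up most of the latter, at 485 CPM in NOD dendritic cells against 87.6 CPM in NOD B cells. Mzb1 was at 197 CPM in NOD B cells and 0.418 CPM in NOD dendritic cells. Sdc1, the syndecan that marks plasma cells, was at 19.9 ± 2.87 CPM (SD, n = 3) in NOD B cells and 0.561 ± 0.15 CPM in NOD dendritic cells. None of the 12 was at 0 counts in any group, and none is a member. Sums over markers of other cell types differed too. Over all libraries of a cell type, 8 macrophage markers summed to 40.8 to 52.0 CPM in B cells and 347 to 442 CPM in dendritic cells. Of 5 T cell markers, Cd4 and Cd8a, which splenic dendritic cells are known to express, were called higher in dendritic cells (375 and 83.7 CPM in NOD) and brought the sum to 439 to 517 CPM against 13.0 to 45.7 CPM in B cells. The other 3 were not called: in NOD B cells and dendritic cells Cd3e was at 6.44 and 5.07 CPM, Cd3d at 2.83 and 2.11 CPM and Trac at 4.17 and 3.92 CPM. The 10 plasmacytoid dendritic cell markers summed to 1719 to 1824 CPM in B cells and 555 to 731 CPM in dendritic cells, mostly through Spib, Tcf4 and Irf8, which B cells are known to express. Siglech, Bst2 and Ccr9 of that list were called higher in dendritic cells, at 3.21 and 13.1, 9.24 and 25.3, and 5.28 and 18.1 CPM in NOD B cells and dendritic cells. The 4 natural killer cell markers summed to 13.3 to 26.0 CPM in B cells and 1.46 to 6.36 CPM in dendritic cells, and the 4 neutrophil markers to 4.73 to 17.2 and 2.78 to 9.59 CPM. Between the strains, edgeR's test called 0 of 54 tested markers of all cell type lists in B cells (6 at an unadjusted p under 0.05, 0 by DESeq2 and 2 with the replicate block) and 0 of 51 in dendritic cells (8, 1 and 1). The part of such cells in the member differences was not tested.

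The other genes of the same pathways, 109 in all, were counted in the same way. By edgeR's test 0 of 103 tested were called between the strains in B cells, 1 of 105 in dendritic cells, and 0 of 106 for the difference between the cell types. Over all genes 0.160%, 1.29% and 0.109% were called in that order. At an unadjusted p under 0.05 there were 1, 11 and 9, against 6.40%, 11.3% and 8.22% of all genes, and DESeq2 called 0, 1 and 1. The 1 gene called in dendritic cells was Slc7a11, the cystine and glutamate exchanger and a target of the Atf4 branch, at 4.67, 3.74 and 3.70 CPM in NOD and 24.1, 26.0 and 24.7 CPM in NOD.Idd2 dendritic cells. It rose 6.25-fold (log2 2.64, SE 0.11, edgeR adjusted p = 8.09e-08) and was called with the replicate block too. The members of that branch, Atf4, Ddit3, Trib3 and Asns, were not called in the same comparison. Between the cell types 40 of 106 were higher and 37 lower in NOD dendritic cells, and 40 higher and 35 lower in NOD.Idd2. The shares over all genes were 37.7% and 38.7% in NOD and 36.7% and 38.9% in NOD.Idd2. Called in both strains and the same direction were 67, with 37 higher and 30 lower, beside 11614 of 16588 over all genes.

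Of these 67, the 5 with the largest fitted falls in dendritic cells were Mzb1, Phgdh, Fkbp11, Txndc5 and Bhlha15, and all but Phgdh are known from antibody-secreting cells, with Mzb1 and Fkbp11 also among the plasma cell markers above. Mzb1, a cofactor of Hsp90b1 in the B lineage, was at 197 ± 14.8 CPM in NOD B cells and 0.418 ± 0.173 CPM (SD, n = 3) in NOD dendritic cells. Txndc5, a disulfide isomerase, was at 253 ± 7.18 and 70.4 ± 0.967 CPM, and Bhlha15, a transcription factor of secretory cells, at 1.86 ± 0.382 and 0.527 ± 0.112 CPM. The proline isomerase gene Fkbp11 was at 2.23 ± 0.211 and 0.133 ± 0.0656 CPM. Phgdh, the first enzyme of serine synthesis, was at 27.8, 25.5 and 12.9 CPM in NOD B cells and 1.35, 0.771 and 1.31 CPM in NOD dendritic cells. The 5 with the largest fitted rises were Pdia5, Slc7a11, Nupr1, Sesn2 and Dnajb14. Pdia5, Slc7a11 and Nupr1 were near the limit of detection in B cells, with 10, 21 and 22 counts over the 6 libraries. The fitted sizes of their rises, and so their ranks, rest on those few counts. Pdia5, a disulfide isomerase, had 1420 and 1238 counts in the NOD and NOD.Idd2 dendritic cells. Sesn2, a stress-induced regulator of growth signalling, was at 10.3 ± 0.999 CPM in NOD B cells and 92.6 ± 6.13 CPM in NOD dendritic cells, and Dnajb14, an ER membrane co-chaperone, at 31.7 ± 1.33 and 209 ± 14.3 CPM. Nupr1, a stress-induced chromatin protein, was at 0.108 ± 0.0558 and 2.91 ± 0.152 CPM. Over the 40 members together the summed level was 7260 ± 173 CPM in NOD B cells and 7520 ± 489.7 CPM in NOD dendritic cells.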

How the data were processed

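Per the labels' protocols, Trizol was used for RNA extraction and a KAPA HyperPrep kit for poly(A) libraries. The authors deposited raw counts per gene for all 12 libraries, which were whole numbers, and a table of normalized counts not used here. STAR 0.12.2 and the GRCm38 genome are named in the submitters' processing notes, while the sources used here name no counting tool, strand setting or annotation. Without that setting, reads of a gene and of one overlapping it on the other strand cannot be told apart.

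The counts were tested in edgeR 4.0.16 by the quasi-likelihood test with TMM scaling, genes kept by filterByExpr (minimum count 10, minimum total 15), and Benjamini-Hochberg adjustment over all genes tested at 0.05. Strain comparisons used the 6 libraries of a cell type, and the others a fit of all 12. Levels are CPM with TMM over 12 libraries, and levels per kb use the exon length of GENCODE vM21. Alternatives were RLE scaling, no filter, DESeq2 1.42.0, the replicate number as a block, a fit of 12 or 6 libraries, and leaving out each library.

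The members and lists (other genes of the pathways, markers of B cells, conventional dendritic cells, plasma cells, plasmacytoid dendritic cells, macrophages, T cells, natural killer cells and neutrophils) were chosen with earlier results of these data known. Any member could be named. Each library's value was given, by rule, for members called in a strain comparison (with or without the block), for every sensor and transcription factor, and for the 3 largest differences each way between the cell types in role groups of at least 4. Of the pathway list, genes called between strains and the 5 largest differences each way were named. Library values of other members were added after their values were seen. Same-numbered B cell libraries of the strains deviated together (correlations 0.519, 0.326 and 0.753), although libraries 1 and 2 also correlated across numbers (0.395 and 0.355). The main fit did not pair them. They were paired only in the replicate block and where pairs by number are given. Same-numbered dendritic cell libraries of the strains did not deviate together (0.012, 0.014 and 0.061). No pair of libraries differed by less than sampling noise. The fits were first run on simulated counts with known changes. In the strain comparisons of B cells and dendritic cells and in their difference, 10.2%, 8.49% and 8.57% of calls were false. Between the cell types 5.97% were false in NOD and 1.62% in NOD.Idd2. In the 3 strain tests, changes of 1.5-fold were recovered in 73.1%, 91.0% and 50.7% of cases. Smaller changes were not simulated, so an absence of calls does not exclude them. Protein sequences were not used here.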

Additional observations from a re-analysis of the deposited data

How the results depend on the processing

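Of the strain comparisons, 0 members were called in B cells, and DESeq2 and the replicate block each called 1 (Hsp90b1). In dendritic cells 0 were called, against 1 with no filter on low counts (Hsp90b1) and from 0 to 2 when 1 library was left out, with 2 (Atf3 and Hsp90b1) without NOD replicate 3. The difference between the cell types had 0, and DESeq2 called 1 (Hyou1). The replicate block changed no other strain call among the members. Over all genes, the B cell count of 24 became 77 with DESeq2, 156 with the replicate block, 42 in the fit of all 12 libraries, 13 to 18 when 1 library was left out and 46 without both replicate 3 libraries, an alternative chosen after seeing the data. The dendritic cell count of 186 became 700 with no filter, 286 with DESeq2, 94 in the fit of all 12 libraries and 63 to 332 when 1 library was left out. The difference count of 18 became 33, 112 and 56 with no filter, DESeq2 and the replicate block, and 7 to 19 when 1 library was left out. The causes were not tested. Between the cell types, 22 of 396 member values in NOD and 15 of 363 in NOD.Idd2 lost their call under an alternative, 3 and 17 gained one, and 1 changed sign, Hspa5 in NOD (log2 0.054 with all libraries, and from -0.00722 without dendritic cell replicate 3 to 0.18 without replicate 1). Without its most abundant member, the log2 ratio of the sums in B cells was 0.024 for the sensors, -0.12 for the transcription factors and -0.089 for the chaperones. Depth limits Chac1, which was not tested, Atf3 in B cells, and the shallow NOD.Idd2 dendritic cell replicate 3.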

Other observations

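Genes outside the list that hold the ERSE letters in the same promoter window were set beside the members that hold them. In B cells all 9 such members were below 0 between the strains, with log2 differences from -0.30 (Derl3) to -0.0061 (Syvn1), and of 8 other tested genes 5 were above 0. In dendritic cells all 9 members were above 0, from 0.026 (Dnajc3) to 0.27 (Derl3), and 1 of 9 other genes was. None of these genes was called by edgeR's quasi-likelihood test in either comparison. Members without the letters shared the sign: all 11 chaperones and all 4 isomerases, with or without them, were below 0 in B cells. In dendritic cells 10 of the 11 chaperones and all 4 isomerases were above 0. Of all 39 tested members, 26 were below 0 in B cells and 29 above 0 in dendritic cells. The members were chosen as genes of the pathway with earlier results known, so the counts are a description only.

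Of the other genes of the pathways, 9 of 86 matched promoters held CARE-like letters, among them Slc7a11, the 1 gene called between the strains in dendritic cells, and Nupr1. In that comparison the amino acid supply member Asns was at 2.79, 2.70 and 2.89 CPM in NOD and 2.17, 2.63 and 2.27 CPM in NOD.Idd2 and was not called (log2 -0.21, SE 0.18). Trib3, which also holds CARE-like letters, went the other way, at 1.89, 1.85 and 2.20 CPM in NOD and 2.26, 2.16 and 2.96 CPM in NOD.Idd2. Its groups overlapped and it was not called. Of the 3 tested integrated stress response targets 1 was above 0 and 2 below.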
